A study of Mus musculus with 22 samples.

Results

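The plasma cell differentiation genes examined here were 8 genes that mark or drive the passage of a B cell into an antibody-secreting plasma cell: Irf4, Prdm1, Xbp1, Sdc1, Tnfrsf17, Jchain, Mzb1 and Derl3. They were chosen by name, with earlier results of these data known. Their levels are sums over the transcripts that the GENCODE annotation assigns to each gene. These came to 26 of 62492 transcripts and to 8 of 17023 genes in the table. The cells were of TCL1-355 TKO, a murine leukemia line from the Eμ-TCL1 transgenic model of chronic lymphocytic leukemia (CLL), in which the TCL1 oncogene is expressed in B cells. All groups shared the lesions that were introduced when the line was made, which include loss of CDKN2A and of CDKN2B. In NFKBIE-ko cells the gene of the NF-κB inhibitor IκBε had been edited with Cas9 and a guide to its exon 2, and NFKBIE-wt cells had been mock transfected. Each genotype was first propagated for 21 days in a C57BL/6 mouse of its own, so that the propagation and the genotype cannot be told apart, and was then injected into the peritoneum of 5 C57BL/6 recipients. Unpurified cells were taken 10 days later from the spleen and the peritoneal cavity (PC), with 4 samples for each genotype and site, and therefore held cells of the host. With 5 recipients, at least 3 of the 4 mice behind the samples of each site gave both a spleen and a PC sample. Cells from spleens were also cultured for 2 weeks, with 3 samples for each genotype.

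In a B cell, IRF4 at high levels turns on Prdm1, whose product Blimp-1 represses the B-cell program and opens the way to Xbp1. XBP1 then drives the genes that enlarge the endoplasmic reticulum (ER) and carry folded and misfolded proteins through it. Syndecan-1 (CD138, from Sdc1) and the survival receptor BCMA (from Tnfrsf17) mark the surface of plasma cells, the J chain (from Jchain) joins IgM and IgA into polymers, MZB1 assists the folding of immunoglobulin in the ER, and Derlin-3 (from Derl3) takes part in the removal of misfolded proteins from it. CLL cells are mature B cells that keep surface IgM, and a part of the plasma cell program can be switched on in them without full differentiation.

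The total estimated count per library lay between 24036763 and 26581304. The genotype and the compartment were taken from the titles of the samples, because another label of the NFKBIE-ko samples begins with the NFKBIE-wt designation and blood is given as the tissue throughout. Nfkbie reached 54.3 to 141 CPM (counts scaled to the same total in each library, with TMM factors) in the NFKBIE-wt libraries and 47.2 to 120.3 CPM in the NFKBIE-ko libraries, and since small insertions and deletions need not lower the RNA, this level does not check the labels. Of the NFKBIE-wt libraries, 2 went against the compartment in their labels. The library labelled spleen replicate 4 had 6.88 CPM in total for 10 erythroid markers, against 319 to 2135 CPM in the other NFKBIE-wt spleens, and its profile was on average more like the NFKBIE-ko cultures (Pearson r of 0.987 over genes) than like the other NFKBIE-wt spleens (r of 0.960). The library labelled in vitro replicate 3 had 1515 CPM for the same markers, against 12.02 and 20.7 CPM in the other NFKBIE-wt cultures, and was more like the NFKBIE-wt spleens (r of 0.980) than its own group (r of 0.951). Culture replicates 1 and 2 of NFKBIE-wt were also more like the NFKBIE-ko cultures than like their own group. Their r was 0.981 and 0.991 with the NFKBIE-ko cultures, and 0.966 and 0.960 with their own group, which includes replicate 3. Nfkbie was read at 117 and 141 CPM in these libraries and at 54.3 CPM in culture replicate 3 of NFKBIE-wt. The NFKBIE-ko cultures were at 56.0, 59.9 and 48.1 CPM. Whether the genotype labels of culture replicates 1 and 2 hold was not tested. The labels were kept, and the tests of the members that use spleen replicate 4 or culture replicate 3 are given with and without them. Counts of the other gene lists without them were added after the data were seen.

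**Figure D1:**
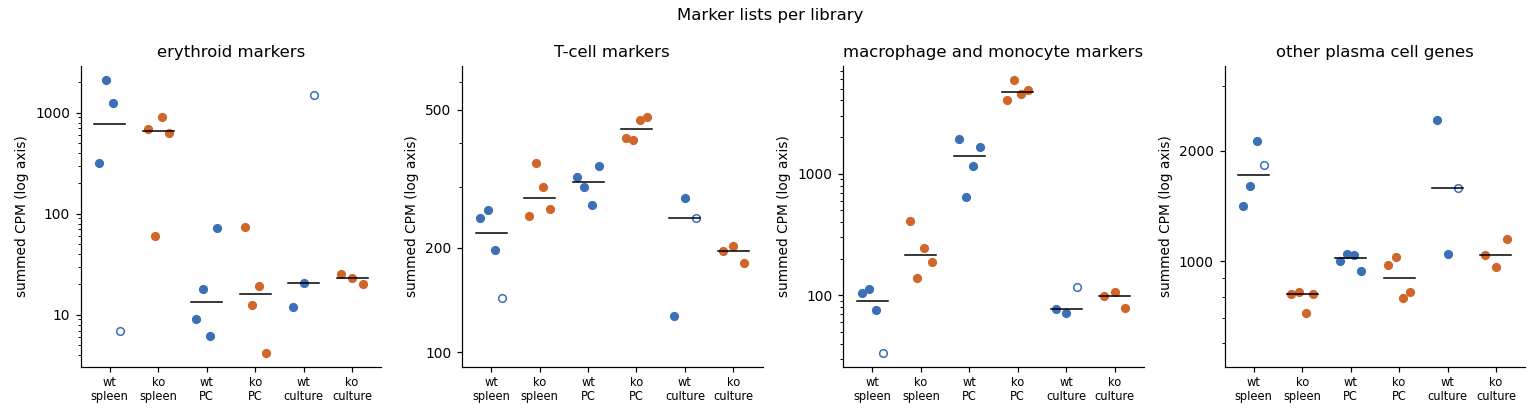
Summed CPM (log axis) of 4 gene lists in each of the 22 libraries by group, with NFKBIE-wt in blue, NFKBIE-ko in orange, open circles for spleen replicate 4 and culture replicate 3 of NFKBIE-wt, and a line at the median of each group. The open circles change places in the erythroid list (6.88 CPM in the one labelled spleen and 1515 CPM in the one labelled culture), and the macrophage list is highest in the NFKBIE-ko PC (4051 to 5936 CPM).

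The members lie on 7 chromosomes (GRCm39). Sdc1 lies on chromosome 12 (8820854 to 8843725, plus strand), Prdm1 on chromosome 10 (44313171 to 44404497, minus strand), Jchain on chromosome 5 (88667668 to 88675750, minus strand), Irf4 on chromosome 13 (30933209 to 30950959, plus strand), Tnfrsf17 on chromosome 16 (11118528 to 11137938, plus strand) and Mzb1 on chromosome 18. Each sum covers the exons of the transcripts in the table, of which there was 1 for Sdc1 and for Tnfrsf17 and 2 to 8 for the others.

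Per length, the members covered a wide range of levels. Mzb1 had a median of 941 TPM (counts divided by transcript length and scaled to the same total in each library) over the 22 libraries, above 99.1% of the genes in the table. Xbp1 had a median of 160.2 TPM, Irf4 of 75.2 TPM, Derl3 of 51.0 TPM, Prdm1 of 15.1 TPM, Jchain of 12.9 TPM, Sdc1 of 2.03 TPM and Tnfrsf17 of 0.265 TPM. The level of RNA for the 2 surface markers was therefore the lowest among the members, and that of an ER protein the highest. Mzb1 was also the steadiest member, with a highest library at 1.97 times the lowest, while Sdc1 and Jchain spanned 34.7 and 34.4 times.

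**Figure D2:**
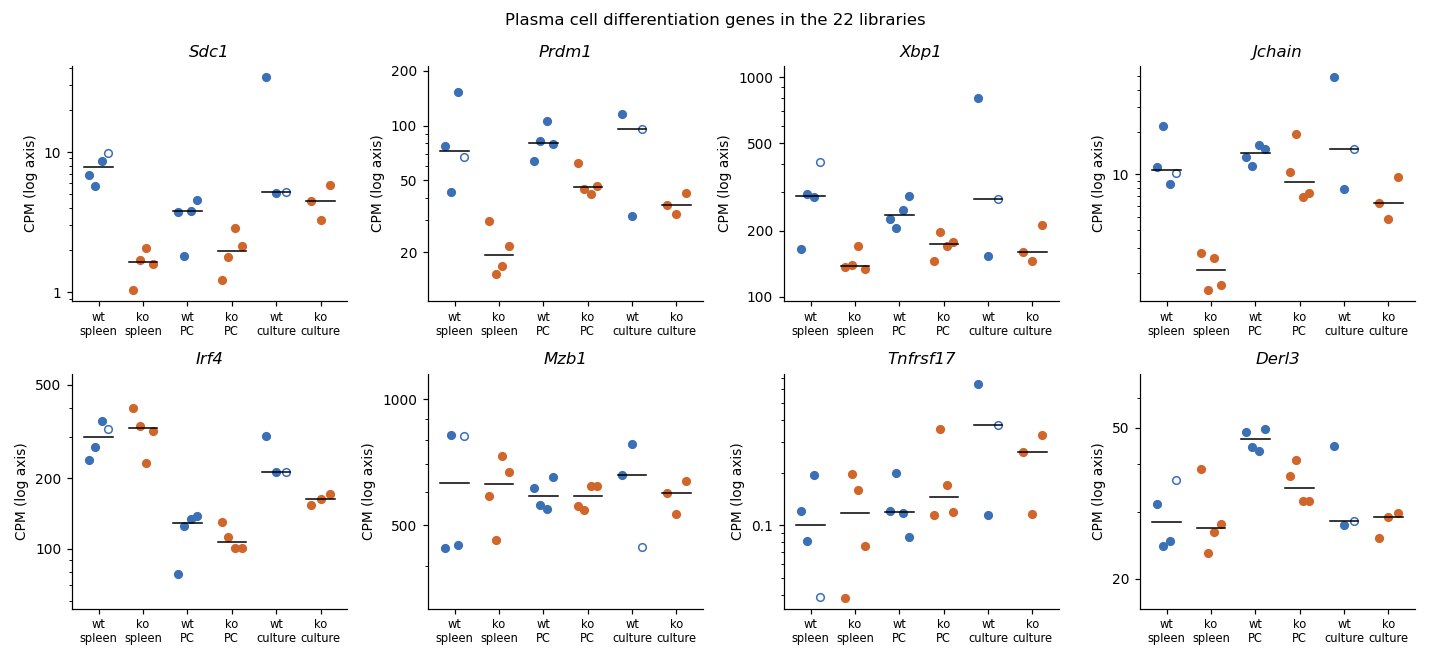
CPM (log axis) of the 8 genes in each library by group, with colors and open circles as in the plot of marker lists and a line at the median. In the spleen the NFKBIE-ko points of Sdc1, Prdm1 and Jchain lie below all NFKBIE-wt points, and Irf4 is lower in the PC than in the spleen for both genotypes.

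Xbp1 lies on the plus strand of chromosome 11 (5470606 to 5483027, GRCm39). Its RNA is unusual in that the kinase IRE1 cuts a short intron out of the cytoplasmic transcript when unfolded proteins collect in the ER, which shifts the reading frame and yields the active factor. The annotation holds this event as an intron of 26 bases within exon 4 of the main transcript. The exon is printed because the reads over it tell the active form from the inactive one, with the 26 bases (chr11:5474278-5474303) in capitals:
Xbp1 exon 4 (GRCm39, chr11:5474239-5474384, plus strand): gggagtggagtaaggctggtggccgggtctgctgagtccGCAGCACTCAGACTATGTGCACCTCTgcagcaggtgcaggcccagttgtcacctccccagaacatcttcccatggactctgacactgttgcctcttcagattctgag

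Derl3 lies on the plus strand of chromosome 10 (75729215 to 75731775, GRCm39). Of the 8 members, 7 had a promoter in the RefSeq table used here, which covers 250 bases before to 50 bases after the start, and none was found for Mzb1. The promoters were searched on both strands for 6 motifs of factors of this program. The promoter of Derl3 held the ER stress response element (ERSE, that is CCAAT and CCACG with 9 bases of any kind between them), which 0.119% of the 32851 promoters hold, at bases 95 to 113 and on the opposite strand. It is printed with that element in capitals because the data bear on this gene in the PC and because the ERSE is the site through which ATF6 and XBP1 act:
Derl3 promoter (GRCm38.p6, chr10:75893148-75893447, plus strand): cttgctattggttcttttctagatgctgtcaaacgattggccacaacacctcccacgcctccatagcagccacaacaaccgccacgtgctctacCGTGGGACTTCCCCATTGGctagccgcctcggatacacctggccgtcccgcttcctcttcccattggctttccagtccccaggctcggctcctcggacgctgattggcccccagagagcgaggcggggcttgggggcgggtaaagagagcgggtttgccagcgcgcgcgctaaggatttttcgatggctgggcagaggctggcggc

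The NF-κB form (GGGA, 4 bases of any kind, CC) was found in the promoters of Derl3 (within the ERSE), Sdc1 and Irf4, and 20.7% of all promoters hold it. The Blimp-1 core GAAAGT was found in Irf4 and Tnfrsf17 (14.3% of all promoters) and the interferon-type element (GAAA, 2 bases of any kind, GAAA) in Tnfrsf17 (3.44%). The core GACGTG of the XBP1 site (6.38%) and the PU.1-IRF composite (GGAA, 2 bases of any kind, GAAA; 2.72%) were in none of the 7 windows. These matches are descriptions of letters and not binding sites.

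The first comparison asked whether loss of IκBε changed the program in the spleen. Of the 7 members that passed the filter on low counts, 4 were lower in NFKBIE-ko than in NFKBIE-wt spleens and 0 were higher, where 3.13% of the 12221 genes tested were lower and 5.43% differed in either direction (edgeR quasi-likelihood test, adjusted p below 0.05). The members were chosen with earlier results of these data known, so that these counts are a description. The 4 genes were Jchain, Sdc1, Prdm1 and Xbp1. Groups did not overlap for the first 3 of them, whereas 8.16% of all genes lay wholly lower. The same 4 passed without spleen replicate 4, when 6.68% of 12471 genes were lower.

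Jchain was read at 11.2, 22.01, 8.54 and 10.2 CPM in the NFKBIE-wt spleens and at 2.76, 1.50, 2.54 and 1.64 CPM in the NFKBIE-ko spleens. All 4 NFKBIE-ko libraries were thus below the lowest NFKBIE-wt library. The difference was 6.18-fold (log2 fold change of -2.63 ± 0.36, SE, n = 4 and 4, edgeR adjusted p of 0.00607), and it was -2.72 without spleen replicate 4 (adjusted p of 0.00241). With the replicate number as a block the call was lost (-2.56, edgeR adjusted p of 0.0617).

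Sdc1, whose product is the defining surface proteoglycan of plasma cells, was read at 6.91, 5.70, 8.66 and 9.86 CPM in NFKBIE-wt and at 1.03, 1.69, 2.06 and 1.60 CPM in NFKBIE-ko spleens. The groups were again apart. The fall was 4.89-fold (log2 fold change of -2.29 ± 0.29, SE, edgeR adjusted p of 0.00451), and -2.15 without spleen replicate 4 (adjusted p of 0.00233). An antisense gene, Gm4755, overlaps the span of Sdc1, and reads of any shared exon cannot be separated where the counting does not use strand. Ccdc117 overlaps the span of Xbp1 on the opposite strand. That span runs to 5483027, while the Xbp1 transcripts in the table end by 5475893. Whether exons are shared was not examined for either pair.

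Prdm1, the gene of Blimp-1, was read at 77.4, 42.8, 152 and 67.4 CPM in NFKBIE-wt and at 29.6, 15.1, 16.8 and 21.7 CPM in NFKBIE-ko spleens. NFKBIE-wt replicate 3 stood highest, and no libraries of the 2 groups overlapped. The log2 fold change was -2.03 ± 0.38 (SE, edgeR adjusted p of 0.0205) and -2.12 without spleen replicate 4 (adjusted p of 0.0102), but the adjusted p was 0.0510 without NFKBIE-wt replicate 1 and between 0.0511 and 0.0791 without NFKBIE-ko replicate 1, 3 or 4. The call was also lost with the replicate number as a block (-1.91, edgeR adjusted p of 0.0735).

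Xbp1 was read at 165, 293, 284 and 411 CPM in NFKBIE-wt and at 136, 140.1, 170.4 and 134 CPM in NFKBIE-ko spleens. NFKBIE-wt replicate 1 fell within the NFKBIE-ko range. The log2 fold change of -0.998 ± 0.243 (SE) passed the test narrowly (edgeR adjusted p of 0.0478), and it was -0.77 without spleen replicate 4 (adjusted p of 0.0361). This call was lost without any one NFKBIE-ko library and without NFKBIE-wt replicate 2 or 3 (adjusted p from 0.0788 to 0.142). It was also lost by limma-voom (adjusted p of 0.0649), without a filter on low counts (edgeR, 0.0505) and with all 22 libraries in the fit (edgeR, 0.0566). The same held with the replicate number as a block (edgeR adjusted p of 0.157) and for the Xbp1 transcript with the highest mean CPM (edgeR adjusted p of 0.197).

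The other 3 members did not pass in the spleen. Irf4 was read at 239.6, 273, 352 and 324 CPM in NFKBIE-wt and at 399, 335, 232 and 319 CPM in NFKBIE-ko spleens, with a log2 difference of 0.10 ± 0.18 (SE, edgeR adjusted p of 0.788), and of 0.16 without spleen replicate 4 (adjusted p of 0.668). The log2 differences of Mzb1 (-0.05) and Derl3 (-0.02) had adjusted p of 0.926 and 0.973 in the same fit and turned to 0.10 and 0.11 without spleen replicate 4. The factor at the head of the cascade and 2 ER proteins thus did not pass the test where the 4 other members fell.

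In the spleen, 14 of 16 T-cell markers and 13 of 14 tested macrophage and monocyte markers had positive log2 differences, though only Cd8a and Timd4 passed, and none of 10 erythroid, 7 granulocyte and 3 stromal markers passed. Without spleen replicate 4, 5 of 16 T-cell markers were higher and 1 lower, 4 of 15 macrophage and monocyte markers were higher, and 1 of 10 erythroid markers was lower by edgeR. The summed macrophage markers lay between 33.7 and 114 CPM in NFKBIE-wt (76.6 to 114 CPM without replicate 4) and between 138 and 410.3 CPM in NFKBIE-ko spleens. As these were bulk samples, fewer cells that express a gene and less RNA of it per cell cannot be told apart, and the part of host cells in the differences was not tested.

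In the PC, 3 of 7 tested members were lower in NFKBIE-ko and 0 were higher, against 20.9% of the 12642 genes that were lower by the same edgeR test. The share of members called was 3 of 7 in a comparison in which 43.4% of all genes passed. Prdm1, Xbp1 and Derl3 passed, each with groups that did not overlap, as 19.4% of all genes did in this direction.

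Prdm1 was read at 63.4, 81.8, 105.6 and 78.8 CPM in NFKBIE-wt and at 61.9, 44.6, 41.8 and 46.5 CPM in NFKBIE-ko samples of the PC. The highest NFKBIE-ko library lay just under the lowest NFKBIE-wt library. The log2 fold change was -0.77 ± 0.16 (SE, n = 4 and 4, edgeR adjusted p of 0.00440).

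Xbp1 was read at 225, 205, 248 and 287 CPM in NFKBIE-wt and at 146, 196, 171 and 178 CPM in NFKBIE-ko PC samples, with a log2 fold change of -0.50 ± 0.12 (SE, edgeR adjusted p of 0.00565). Derl3 was read at 48.7, 44.4, 43.4 and 49.6 CPM in NFKBIE-wt and at 37.3, 41.1, 32.1 and 32.1 CPM in NFKBIE-ko PC samples, with a log2 fold change of -0.40 ± 0.09 (SE, edgeR adjusted p of 0.00618). Both differences were under the 2-fold threshold of the study, and so was that of Prdm1, so that 0 members would count by that rule. When all 22 libraries shared 1 estimate of the spread, 0 of the 3 passed (edgeR adjusted p of 0.133 for Prdm1, 0.332 for Xbp1 and 0.108 for Derl3). That fit held the libraries that went against their labels, and NFKBIE-wt culture replicate 1 with 803 CPM for Xbp1. The PC comparison itself uses none of these libraries, and their part in the loss of the calls was not tested.

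Sdc1 was read at 3.76, 1.83, 3.82 and 4.53 CPM in NFKBIE-wt and at 1.22, 1.79, 2.89 and 2.14 CPM in NFKBIE-ko PC samples. NFKBIE-wt replicate 2 lay within the NFKBIE-ko range. The log2 difference of -0.81 ± 0.33 (SE) missed the threshold (edgeR adjusted p of 0.0671), and it passed at -1.03 without that library (adjusted p of 0.0133) and at -1.04 without NFKBIE-ko replicate 3 (adjusted p of 0.0381).

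Jchain was read at 13.2, 11.6, 16.1 and 15.1 CPM in NFKBIE-wt and at 10.5, 19.3, 6.92 and 7.32 CPM in NFKBIE-ko PC samples. The highest and the lowest of these 8 libraries were both NFKBIE-ko. The log2 difference of -0.36 ± 0.30 (SE, edgeR adjusted p of 0.373) became -0.77 (adjusted p of 0.00868) without NFKBIE-ko replicate 2. Irf4 and Mzb1 had log2 differences of -0.11 and -0.03 in the PC, with edgeR adjusted p of 0.646 and 0.807.

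Of the markers of other cells in the PC, 13 of 16 macrophage and monocyte markers and 9 of 16 T-cell markers were higher in NFKBIE-ko, and 5 of 7 granulocyte markers and 4 of 5 stromal and mesothelial markers were lower by edgeR. The T-cell markers Trac (-0.99) and Zap70 (-2.08) were lower and the endothelial marker Pecam1 (0.67) was higher. None of 5 erythroid markers passed. The summed macrophage markers lay between 648 and 1916 CPM in NFKBIE-wt and between 4051 and 5936 CPM in NFKBIE-ko PC samples, with none of the 16 at 0. Their part in the lower Prdm1, Xbp1 and Derl3 was not tested.

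In culture, 0 of 7 tested members passed between the genotypes with edgeR, 0 with DESeq2 and 0 with limma-voom, where edgeR called 0.0341% of 11722 genes. All 7 log2 differences were negative, and 3 had an unadjusted p below 0.05 (Irf4, Jchain and Prdm1), as did 9.59% of all genes. Irf4 was read at 304, 213 and 213 CPM in NFKBIE-wt and at 153, 163 and 172 CPM in NFKBIE-ko cultures. It was the only tested member in culture whose groups did not overlap, as 9.79% of all genes did in this direction, and its log2 difference was -0.58 ± 0.15 (SE, n = 3 and 3, edgeR adjusted p of 0.468). Without culture replicate 3 it was -0.66 (adjusted p of 0.293).

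The NFKBIE-wt cultures differed widely among themselves. Replicate 1 had the highest level of all 22 libraries for Sdc1, Xbp1, Jchain and Tnfrsf17. Xbp1 was read at 803, 153 and 279 CPM in NFKBIE-wt and at 159, 145 and 213 CPM in NFKBIE-ko cultures, and the first stood at 2.88 times the next. Its log2 difference was -1.25 ± 0.58 (SE, edgeR adjusted p of 0.531), and -0.34 without replicate 1. Sdc1 was read at 34.5, 5.14 and 5.20 CPM in NFKBIE-wt and at 4.47, 3.27 and 5.78 CPM in NFKBIE-ko cultures. The log2 difference of Sdc1 of -1.72 ± 0.81 (SE, edgeR adjusted p of 0.531) was -0.21 without that library (adjusted p of 0.715).

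Jchain was read at 49.8, 7.83 and 15.1 CPM in NFKBIE-wt and at 6.30, 4.85 and 9.62 CPM in NFKBIE-ko cultures, with a log2 difference of -1.80 ± 0.69 (SE, edgeR adjusted p of 0.517), which was -0.75 without replicate 1. Prdm1 was read at 116, 31.7 and 95.2 CPM in NFKBIE-wt and at 36.4, 32.5 and 42.7 CPM in NFKBIE-ko cultures, with a log2 difference of -1.12 ± 0.45 (SE, edgeR adjusted p of 0.517). The second of the 3 NFKBIE-wt values lay within the NFKBIE-ko range for Jchain and just under it for Prdm1. Without that library Prdm1 passed at -1.50 (edgeR adjusted p of 0.0223). The NFKBIE-wt cultures left in that fit were replicate 1 and replicate 3, and the markers of replicate 3 went against its label. Without culture replicate 3, 0 members passed (0.0759% of all genes did). The log2 differences of Sdc1, Prdm1, Xbp1 and Jchain were then -2.13, -0.97, -1.46 and -2.04.

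**Figure D3:**
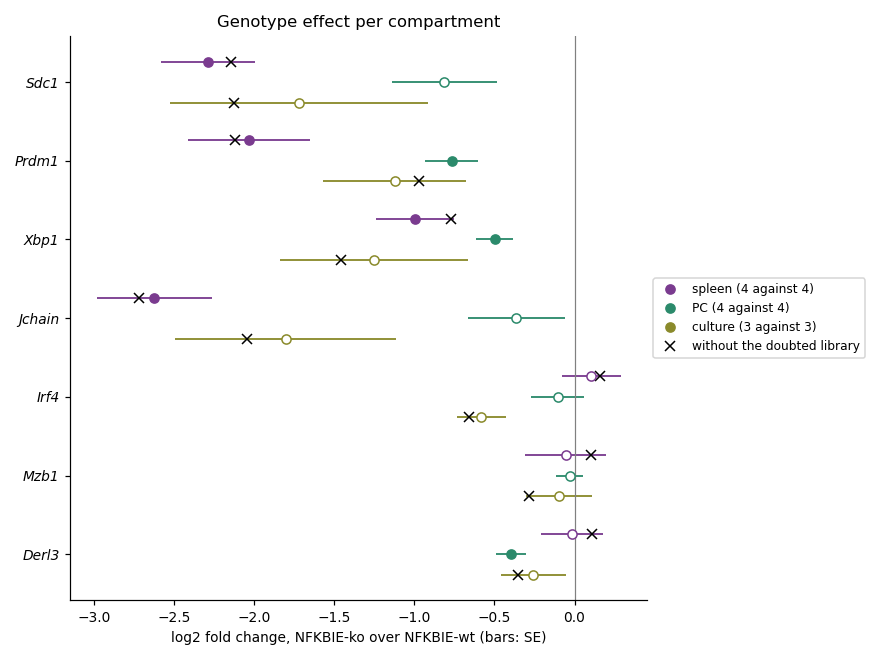
log2 fold change of NFKBIE-ko over NFKBIE-wt with its SE for the 7 tested genes in the spleen, the PC and culture, filled where the edgeR adjusted p is below 0.05, with crosses for the fit without spleen replicate 4 or culture replicate 3 of NFKBIE-wt. Jchain, Sdc1, Prdm1 and Xbp1 are filled in the spleen (-2.63 to -0.998), Prdm1, Xbp1 and Derl3 in the PC (-0.77 to -0.40), and none in culture.

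Whether the effect of genotype differed between compartments was tested as an interaction in a fit of all 22 libraries. Of the 7 members, 0 passed for spleen minus PC by edgeR, with 3 at an unadjusted p below 0.05, 1 by DESeq2 and 0 by limma-voom (4.92% of 13537 genes passed by edgeR). Jchain came nearest, with an effect lower by 2.27 ± 0.66 on the log2 scale (SE) in the spleen than in the PC and an edgeR adjusted p of 0.0521. It passed without spleen replicate 4 and culture replicate 3 together (difference of -2.35, adjusted p of 0.0402), without NFKBIE-wt spleen replicate 3 (adjusted p of 0.0475), by DESeq2 (adjusted p of 0.00889) and with the stricter filter on low counts (edgeR adjusted p of 0.0464). The differences for Sdc1 (-1.49) and Prdm1 (-1.27) had edgeR adjusted p of 0.233 and 0.155 (-1.33 with 0.219 and -1.34 with 0.126 without both libraries), so that the larger fall in the spleen of these genes was not shown to differ from that in the PC.

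Spleen minus culture and PC minus culture gave 0 of 7 members each by edgeR, DESeq2 and limma-voom, with 1 member at an unadjusted p below 0.05 in each (0.443% and 4.80% of all genes passed by edgeR). These were Irf4 for the first (0.69, edgeR adjusted p of 0.224) and Jchain for the second (1.46, edgeR adjusted p of 0.247). The value for Jchain was 0.38 without NFKBIE-wt culture replicate 1.

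The next comparisons asked how the site changed the members within a genotype, and the 3 sites of a genotype share samples between comparisons. The labels do not say which spleen and PC samples came from the same mouse, and these tests, like the interaction of spleen minus PC, treat them as independent. Irf4 differed between the PC and the spleen in both genotypes. In NFKBIE-wt cells it was read at 78.0, 125, 134 and 138 CPM in the PC, with a log2 difference from the spleen of -1.32 ± 0.19 (SE, edgeR adjusted p of 2.39e-05) and of -1.26 without the 2 doubted libraries (adjusted p of 6.29e-05). In NFKBIE-ko cells it was read at 129.8, 113, 101.1 and 101.0 CPM in the PC, with a log2 difference of -1.53 ± 0.19 (SE, edgeR adjusted p of 1.79e-06). All 8 PC libraries lay below all 8 spleen libraries, of which one was the doubted replicate 4. In NFKBIE-wt alone 15.9% of all genes lay wholly lower in the PC, and the share over both genotypes was not computed. Between these sites 15 of 16 macrophage and monocyte markers were higher in the PC in each genotype, and 8 of 10 erythroid markers in NFKBIE-wt and 5 of 10 in NFKBIE-ko were lower (10 of 10 in each without the 2 doubted libraries). Their part in the differences of the members was not tested.

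In NFKBIE-wt cells, 1 of 7 tested members was higher and 1 lower in the PC than in the spleen, where 15.8% and 19.7% of 13537 genes were. Derl3 was the one higher, with a mean of 46.5 ± 3.1 CPM in the PC and of 29.3 ± 5.6 CPM in the spleen (SD, n = 4 each). It had a log2 difference of 0.67 ± 0.17 (SE, edgeR adjusted p of 0.00501) and of 0.80 without the 2 doubted libraries (adjusted p of 0.00109). Sdc1 did not pass (-1.16, edgeR adjusted p of 0.0696, and -1.005 with 0.0888 without the 2 doubted libraries), although its groups did not overlap, as 15.9% of all genes did in this direction. It passed with only the 2 compared groups in the fit (-1.13, edgeR adjusted p of 0.0238) and with the replicate number as a block (-1.24, edgeR adjusted p of 0.0318).

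In NFKBIE-ko cells, 2 members were higher and 1 lower in the PC than in the spleen, against 25% and 26.1% of all genes. The 2 that were higher were genes that had been lower in the NFKBIE-ko than in the NFKBIE-wt spleen. Both comparisons use the same NFKBIE-ko spleen libraries and are not independent. Sdc1 (0.33, edgeR adjusted p of 0.608) and Xbp1 (0.25, edgeR adjusted p of 0.566), also lower in that spleen comparison, did not pass. Jchain had a mean of 11.004 ± 5.75 CPM (SD, n = 4) in the PC and of 2.11 ± 0.63 CPM (SD, n = 4) in the spleen, a difference of 5.21-fold (log2 of 2.38 ± 0.49, SE, edgeR adjusted p of 0.00046). Prdm1 had means of 48.7 ± 9.0 CPM and 20.8 ± 6.5 CPM (SD, n = 4 each), with a log2 difference of 1.23 ± 0.36 (SE, edgeR adjusted p of 0.00828). In NFKBIE-wt cells the same differences between PC and spleen were 0.11 for Jchain and -0.04 for Prdm1, and neither passed.

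Against culture, the NFKBIE-wt PC had 2 members lower and 0 higher of 7, where 19.7% and 14.4% of 13537 genes were. Irf4 fell by 1.03 ± 0.20 on the log2 scale (SE, edgeR adjusted p of 0.000599). Sdc1 fell by 2.10 ± 0.52 on the log2 scale (SE, edgeR adjusted p of 0.00449), but the difference was -0.57 without culture replicate 1 (adjusted p of 0.259), and it was -2.45 without the 2 doubted libraries (adjusted p of 0.000621). The call for Irf4 held without any single library of the 2 groups, and its difference was -1.07 without the 2 doubted libraries. Derl3 missed the threshold by edgeR (0.47, adjusted p of 0.0561) and passed by DESeq2 (0.0240) and by limma-voom (0.0313), so that each of these called 3 members. With edgeR its adjusted p was between 0.0357 and 0.0419 under DESeq2 size factors and under either other filter on low counts, 0.00742 without culture replicate 1 and 0.0895 without the 2 doubted libraries.

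The NFKBIE-ko PC had 1 member lower than culture, Irf4 (-0.55 ± 0.20, SE, edgeR adjusted p of 0.0263), where 23.9% of all genes were lower. That call was lost without NFKBIE-ko PC replicate 2, 3 or 4 or culture replicate 2 or 3 (adjusted p from 0.0592 to 0.0845). Sdc1 missed the threshold at -1.17 (adjusted p of 0.0724) and passed at -1.13 without the 2 doubted libraries (adjusted p of 0.0489).

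The NFKBIE-ko spleen had 2 members lower and 1 higher than NFKBIE-ko culture, where 13.4% and 16.9% of all genes were. Irf4 was the one higher, with a mean of 321 ± 69 CPM in the spleen (SD, n = 4) and of 163 ± 9 CPM in culture (SD, n = 3). It had a log2 difference of 0.98 ± 0.20 (SE, edgeR adjusted p of 0.00227). Jchain (-1.71 ± 0.51, SE, edgeR adjusted p of 0.0169) and Sdc1 (-1.49 ± 0.53, SE, edgeR adjusted p of 0.0382) were lower. Both lost their call without culture replicate 3 (adjusted p of 0.0816 and 0.129), and Sdc1 also lost it when any other library of the 2 groups was left out (adjusted p from 0.0504 to 0.0929).

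Markers of host cells moved with the comparisons against culture. In NFKBIE-ko cells, 13 of 16 T-cell, 10 of 16 macrophage, 6 of 10 erythroid and 7 of 8 granulocyte markers were higher in the spleen than in culture by edgeR (1 macrophage marker was lower), and 15 of 16 macrophage, 13 of 16 T-cell and 4 of 8 granulocyte markers were higher in the PC (1 T-cell marker was lower). In the NFKBIE-wt PC, 14 of 16 macrophage markers were higher and 6 of 10 erythroid markers lower than in culture, and without the 2 doubted libraries 15 of 16 macrophage markers and 1 erythroid marker were higher and 0 erythroid markers lower. The part of host cells in the differences of the members from culture was not tested.

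The NFKBIE-wt spleen did not differ from NFKBIE-wt culture in any member: 0 of 7 passed by edgeR, DESeq2 or limma-voom, and 0 had an unadjusted p below 0.05. This is the comparison in which both doubted libraries enter, and 0% of 13537 genes passed by edgeR, with 1059 (7.82%) at an unadjusted p below 0.05 and with 21 genes (0.143%) by DESeq2 and 0 by limma-voom. Without these 2 libraries 26.2% of 13758 genes passed by edgeR. Of the members, Sdc1 then passed, with a log2 difference of -1.44 ± 0.52 (SE, n = 3 and 2, adjusted p of 0.0495), and the other 6 did not. The cultures left were read at 34.5 and 5.14 CPM for Sdc1, and the spleens at 6.91, 5.70 and 8.66 CPM. Culture replicate 2 thus lay below each of these spleens, and the lower level in the spleen rested on culture replicate 1. In that fit 9 of 10 erythroid, 10 of 16 T-cell, 7 of 16 macrophage and 6 of 8 granulocyte markers were higher in the spleen, against 0 of each list with all libraries.

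**Figure D4:**
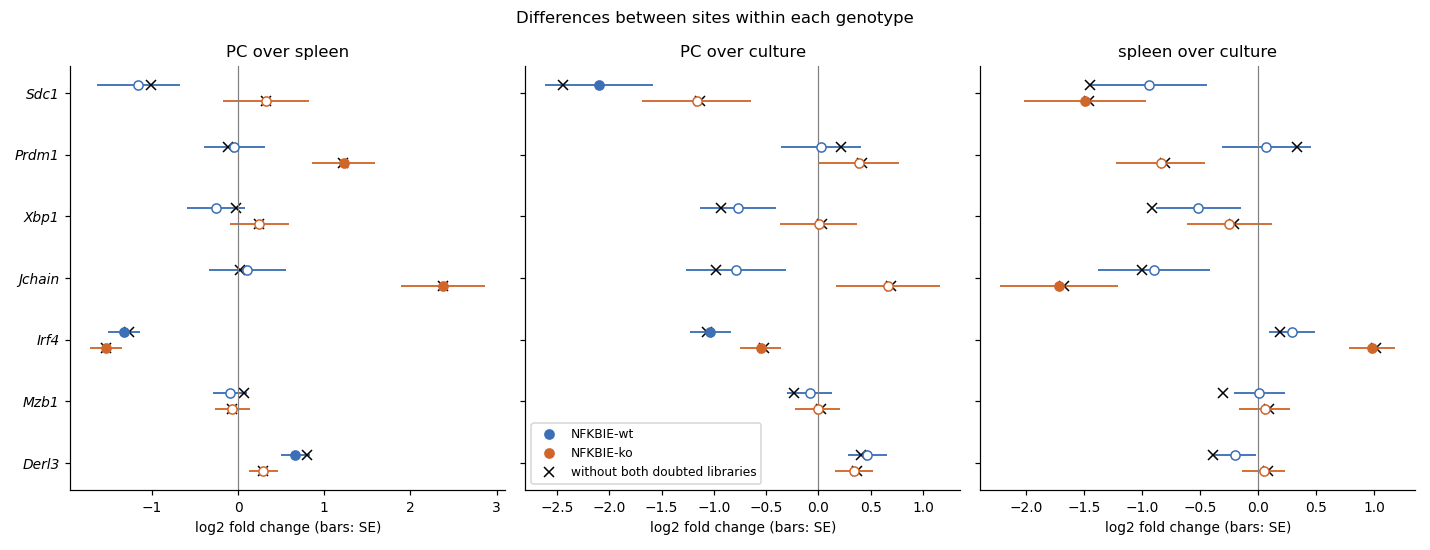
log2 fold change between sites with its SE for the 7 tested genes, in NFKBIE-wt (blue) and NFKBIE-ko (orange), filled where the edgeR adjusted p is below 0.05, with crosses for the fit without spleen replicate 4 and culture replicate 3 of NFKBIE-wt. Irf4 is filled on the left of 0 for PC over spleen in both genotypes (-1.32 and -1.53), while Prdm1 (1.23) and Jchain (2.38) are filled on the right in NFKBIE-ko.

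Tnfrsf17, the gene of BCMA, was near the limit of detection. Its estimated counts ran from 1 to 16 per library, with the highest in NFKBIE-wt culture replicate 1 (0.643 CPM), and it was left out of each of the 12 comparisons by the filter on low counts. A difference in Tnfrsf17 was not detectable at this depth.

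Mzb1 passed in none of the 12 comparisons with edgeR. Its group means were lowest in the PC of NFKBIE-ko (586 ± 40 CPM, SD, n = 4) and highest in the spleen of NFKBIE-wt (633 ± 217 CPM, SD, n = 4), a smaller distance than the spread within the NFKBIE-wt spleens, which were read at 442, 824, 448 and 817 CPM. A gene on the same strand, Gm50318, overlaps Mzb1 and may share its reads.

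Below the level of genes, the share of the Xbp1 transcript that lacks the 26-base intron was computed per length from the 5 Xbp1 transcripts in the table. It was 7.51 ± 3.0% in NFKBIE-wt and 11.9 ± 4.6% in NFKBIE-ko spleens, 11.9 ± 3.3% and 6.19 ± 1.84% in the PC, and 6.21 ± 1.01% and 7.70 ± 0.44% in culture (SD, n = 4, 4 and 3 for each genotype). In the PC the shares were 14.6, 14.8, 9.48 and 8.76% in NFKBIE-wt and 7.83, 6.01, 3.67 and 7.25% in NFKBIE-ko samples, and the groups did not overlap. The difference of -5.73 percentage points had a two-sided exact permutation p of 0.0286, the smallest that 4 against 4 samples allow, and an adjusted p of 0.257 over the 9 shares compared. The direction was the opposite in the spleen (4.36 points, exact p of 0.2) and in culture (1.49 points, exact p of 0.1, the smallest possible for 3 against 3). Without the doubted library these were 3.98 points (exact p of 0.257) in the spleen and 0.931 points (exact p of 0.1) in culture. The 2 forms differ in length in the annotation (the intron-less model is shorter at both ends), and the assignment of shared reads between them is an estimate.

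Prdm1 had 2 main transcripts, of which one lacks the second exon. Its share per length was 46.1 ± 4.7% in NFKBIE-wt and 35.2 ± 7.8% in NFKBIE-ko spleens (exact permutation p of 0.114, two-sided, n = 4 and 4) and 37.0 ± 11.9% and 25.1 ± 4.7% in the PC (exact p of 0.171). In culture it was 37.4 ± 17.2% and 32.1 ± 5.1% (exact p of 0.7, n = 3 and 3). Without the doubted library the difference was -11.5 points in the spleen (exact p of 0.114) in place of -10.9 points, and in culture it turned from -5.28 to 1.52 points (exact p of 0.9). After adjustment over the same 9 comparisons none passed. Fitted separately per transcript in the spleen, the form with the exon fell by 1.57 and the form without it fell by 2.40 on the log2 scale, with edgeR adjusted p of 0.0804 and 0.125 over 33308 transcripts. The transcripts of Sdc1 (-2.23, adjusted p of 0.0328) and the coding transcript of Jchain (-2.53, adjusted p of 0.0492) passed in that fit.

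Other genes of the plasma cell program were read from lists that are given here by their counts. These lists were also chosen with earlier results of these data known. Of 12 further plasma cell genes, 4 were lower and 0 higher in the NFKBIE-ko than in the NFKBIE-wt spleen by edgeR, with a median log2 difference of -0.65 (all genes -0.01), where 3.13% of all genes were lower. Without spleen replicate 4 these 4 passed again among 6 that were lower. They were Bhlha15 (-2.09, adjusted p of 0.0255), which encodes the secretory factor MIST1, Txndc5 (-1.55, adjusted p of 0.0035), an ER disulfide isomerase, Slamf7 (-1.16, adjusted p of 0.00412), a surface receptor of plasma cells, and Tnfrsf13b (-1.02, adjusted p of 0.00451), the gene of the receptor TACI. In the PC 4 of the 12 were lower and 2 higher, in a comparison in which 20.9% and 22.5% of all genes were, led by Cd28 (2.13, adjusted p of 0.000181), which T cells also express, Cav1 (-1.67) and Bhlha15 (-1.32). In culture 0 of the 10 tested passed by edgeR.

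The unfolded protein response and secretory genes stood closer to the rest of the genes by their median, while their calls in the PC were mostly lower. In the spleen 2 of 26 were lower, namely Sel1l (-1.74, edgeR adjusted p of 0.042), which anchors the ubiquitin ligase of ER-associated degradation, and Sec24d (-1.39, edgeR adjusted p of 0.0131), a coat protein of export from the ER. The median log2 difference of the 26 was -0.06, against -0.01 for all genes, and without spleen replicate 4 the list had 3 lower and 1 higher. In the PC, where 20.9% of all genes were lower and 22.5% higher, 9 of 26 were lower and 1 higher, among them Dnajb9 (-1.07), Sel1l (-0.92), the chaperone gene Hspa5 (-0.90) and Herpud1 (-0.87), with edgeR adjusted p of 0.0245 or less, and the median was again -0.06.

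Blimp-1 represses a set of B-cell genes, and calls among these went both ways, as they did over all genes. In the spleen, where Prdm1 was lower, 2 of 15 tested genes of this list were higher (Spi1 at 0.65 and Spib at 0.59) and 2 lower (Bach2 at -1.96 and Cd79b at -0.94), and in the PC 6 were higher and 5 lower by edgeR. Over all genes, 5.43% differed in the spleen (3.13% were lower), and in the PC 22.5% were higher and 20.9% lower. Without spleen replicate 4 the spleen counts of this list were 5 and 4, where 6.68% of all genes were lower. Of the immunoglobulin constant genes in the spleen, Ighm fell by 0.54 on the log2 scale (7769 ± 136 CPM to 5348 ± 353 CPM, SD, n = 4 each, edgeR adjusted p of 0.0239) and Iglc2 fell by 0.84 (edgeR adjusted p of 0.0302), while Ighe was higher from a mean of 0.374 CPM to 6.03 CPM (adjusted p of 0.0312), and all 3 passed without spleen replicate 4. In the PC 4 of 12 were lower and 3 higher, where 20.9% and 22.5% of all genes were. Ighm fell by 0.55 and Ighg1 fell by 3.02 on the log2 scale (102.6 ± 10.7 CPM to 12.7 ± 0.5 CPM, SD, n = 4 each, edgeR adjusted p of 4.38e-08), and Iglc1 (-0.42) and Iglc2 (-0.64) were also lower. Ighg2c (2.81, from a mean of 0.142 to 1.03 CPM, edgeR adjusted p of 7.78e-05), Igha (0.54, adjusted p of 0.00800) and Ighd (0.39, adjusted p of 0.0111) were higher.

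Between the sites, the further plasma cell genes with a call by edgeR were lower in the NFKBIE-wt PC than in the spleen (4 lower and 0 higher of 12) and than in culture (5 lower and 0 higher), where 19.7% of all genes were lower in each. Without the 2 doubted libraries these counts were 5 lower and 0 higher and 6 lower and 1 higher. Tnfrsf13b led both counts, at -1.33 and -1.47. In NFKBIE-ko cells 3 of 12 were lower and 0 higher in the PC than in the spleen, led by Ccr10 (-1.58), which is close to the 26.1% of all genes that were lower. The 26 secretory genes had 7 lower and 0 higher for NFKBIE-wt and 8 lower and 3 higher for NFKBIE-ko in the PC against the spleen, where the NFKBIE-ko values of Dnajb9 and Hspa5 were -1.49 and -1.32. Of all genes, 19.7% were lower and 15.8% higher in the first and 26.1% and 25% in the second, and the NFKBIE-wt count became 3 lower and 3 higher without the 2 doubted libraries.

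The genes whose levels followed each member most closely were read from Pearson correlations of log2(CPM + 1) over the 22 libraries, which share groups and host cells and therefore are descriptions. Xbp1 was most like Bhlha15 (r of 0.929, and 0.918 without the 2 doubted libraries), followed by Inpp1 (0.850) and the member Sdc1 (0.841). Sdc1 was most like Kdelr2 (0.899), whose product returns ER proteins from the Golgi, Inpp1 (0.887) and Slc44a1 (0.872). Prdm1 was most like Gnaq (0.905), Fam13a (0.900) and Tpcn1 (0.898), and Jchain like Ostm1 (0.876), Fbxo8 (0.866) and Fam13a (0.850). Irf4 was most like Ints10 (0.933), Septin7 (0.921) and Psme4 (0.908), Mzb1 like Ndufa2 (0.822), Reep5 (0.799) and Ndufs7 (0.791), and Derl3 like Sel1l3 (0.837), Usp12 (0.829) and Acad12 (0.822). Within the members, Prdm1 and Jchain had an r of 0.770 and Xbp1 and Jchain an r of 0.763, while Prdm1 and Irf4 had an r of -0.15. The r of Sdc1 and Xbp1 was 0.696 without NFKBIE-wt culture replicate 1, in which both were highest.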

How the data were processed

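RNA of 22 samples was sequenced as paired-end libraries with the Illumina TruSeq mRNA kit. The authors estimated transcript abundance with Salmon 1.8 on GRCm39 and deposited estimated counts (expected counts) per transcript without normalization, and 69.5% of the values were not whole numbers. Reads shared by transcripts are divided by the model of Salmon, so that shares of isoforms are less certain than sums per gene. The 62147 transcripts that matched GENCODE vM39 were summed per gene and rounded, and the unmatched ones took 0.619% of all counts. TPM was computed from these counts and the annotated lengths.

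Genes were tested with edgeR 4.0.16 (R 4.3.3; filterByExpr, TMM, robust quasi-likelihood, Benjamini-Hochberg over all genes tested). Each genotype effect was fitted on its 2 groups, and sites and interactions on all 22 libraries. CPM was scaled with the TMM factors of the 22 libraries. The fits were tested on simulated data. Shares of transcripts were compared with exact permutation tests. DESeq2 1.42.0, limma 3.58.1 (voom), other scalings, filters and features, the replicate number as a block, and leaving out libraries were alternatives. The members and gene lists were chosen with earlier results of these data known. All members are named, with up to 4 genes called for each other list and the 3 protein-coding genes most like each member. The labels do not tie spleen and PC samples to animals, so that samples of one mouse were treated as independent and p-values measure the spread between samples. No pair of replicates was alike within sampling noise (chi-square per degree of freedom from 6.85 to 199.9). Promoters are from RefSeq (GRCm38.p6), and the other sequence is from GRCm39.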

Additional observations from a re-analysis of the deposited data

Results flagged for a closer look

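Among 32 sets of 4 libraries (8 genes in 4 groups), 1 held a library far from the others by Dixon's test: Xbp1 in NFKBIE-ko spleen replicate 3, at 170.4 CPM against 134 to 140.1 CPM in the other 3. Chance gives such a library in about 1 of 20 sets. Groups of 3 were not tested, so NFKBIE-wt culture replicate 1 was not assessed in this way.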

How the results depend on the processing

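Counts of members called were recomputed for 12 comparisons under the alternatives. In the spleen, 4 members were lower between genotypes, against 2 with 1 transcript per gene (the one with the highest mean CPM) and 2 to 4 when 1 library was left out. In the PC the 3 lower members became 0 with 1 transcript per gene, 0 with a fold threshold of 1 (log2) and 0 with all 22 libraries in the fit, and leaving out 1 library gave 3 to 4. In culture the count of 0 ranged from 0 to 1. For NFKBIE-wt PC against culture, 2 became 1 with only the compared groups in the fit (2 to 3 without 1 library), and against spleen 2 became 1 with the fold threshold and 3 with the replicate block or only the compared groups. For NFKBIE-wt spleen against culture, 0 became 1 without the 2 doubted libraries. For NFKBIE-ko spleen against culture, 3 became 1 by limma-voom and 1 with 1 transcript per gene, and ranged from 1 to 2 without 1 library. For NFKBIE-ko PC against culture, 1 became 0 with the fold threshold, 0 with DESeq2 size factors, 0 with 1 transcript per gene, 4 with only the compared groups, 2 without the 2 doubted libraries, and 0 to 1 without 1 library. The interaction of spleen minus PC went from 0 to 1 with the stricter filter, by DESeq2 and without the 2 doubted libraries, and spleen minus PC and spleen minus culture each ranged from 0 to 1 without 1 library. The cause of these changes was not tested.

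With the replicate number as a replicate block, the spleen count was 1, the PC count 3 and the NFKBIE-ko PC against culture count 2. Jchain, Prdm1 and Xbp1 lost their calls in the spleen under that block. Correlations of deviations between samples of the same number ran from -0.353 to 0.378, and samples shared only a number.

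The direction turned in 15 of the fits for single genes. In the spleen, Irf4 ranged from -0.0117 to 0.24 on the log2 scale, Mzb1 from -0.19 to 0.11 and Derl3 from -0.18 to 0.11 without 1 library, and Derl3 was 0.36 with 1 transcript per gene. Mzb1 ranged from -0.0733 to 0.0206 in the PC (0.0253 with 1 transcript per gene) and from -0.28 to 0.10 in culture, and Xbp1 in NFKBIE-wt PC against culture from -1.17 to 0.16. Counts limit Tnfrsf17 alone among the members.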
